A study of Mus musculus with 4 samples.

Results

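Reelin is a glycoprotein that is secreted by Cajal-Retzius cells at the surface of the developing cortex. It binds the lipoprotein receptors ApoER2 (gene *Lrp8*) and VLDLR (*Vldlr*) on migrating neurons. The adaptor Dab1, which is bound to the receptor tails, is then phosphorylated on tyrosine by Fyn and other Src family kinases, and Crk and Crkl bind the phosphorylated Dab1. Loss of Reelin, of both receptors or of Dab1 is known to disturb the layering of the cortex. The receptors, Dab1, Fyn and Crk are all made in several spliced forms. The data described here are the transcript levels and splicing events of the 7 genes *Reln*, *Lrp8*, *Vldlr*, *Dab1*, *Fyn*, *Crk* and *Crkl*, chosen by symbol, in cortex with and without the RNA-binding protein Qki. All 7 symbols were found among the 23038 genes of the files, and by gene number they own 28 of the 38240 alternative splicing events.

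Polyadenylated RNA of E14.5 mouse cortex had been sequenced in 2 control embryos and in 2 *Qk* cKO embryos. Controls are labelled wild type and are described in the methods as littermates with *Qk* fl/fl and no Cre, so both groups would carry the loxP sites. *Qk* cKO embryos carry Nestin-Cre and *Qk* fl/fl. The Nestin promoter drives Cre in neural progenitors and their offspring, so blood vessels, meninges and microglia of the dissected tissue keep *Qk*. The labels call the replicates independent, and with 2 samples in each group an exact permutation test of a single value cannot go below p = 0.333. The samples held between 37942046 and 42994832 gene tags. On the junction of *Qk* exons 2 and 3 the controls had 635 and 565 tags and the *Qk* cKO samples 63 and 68, so the labels held for every sample. Summed over 8 genes, markers of projection neurons lay between 1136 and 1251 RPKM, and markers of hypothalamus and diencephalon between 1.69 and 9.79 RPKM. Most of the projection neuron sum was *Tubb3*, at 676 to 833 RPKM, and the purity of the dissected tissue was not tested.

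The steady-state levels of the 7 transcripts were compared first. None of the 7 was called changed in *Qk* cKO, while 0.584% of the 18834 genes tested were called in the same test (edgeR's quasi-likelihood test, with p below 0.01 and FDR below 0.1 after Benjamini-Hochberg adjustment as limits of a call). At an unadjusted p below 0.05 there was 1 of the 7, *Vldlr*, and this share stood beside 8.76% of all genes. The exact test of edgeR and DESeq2 also called none. RPKM is the number of tags scaled to the exon length of the gene and the depth of the sample, and on this scale the genes could be placed in order. *Fyn* was the highest, between 67.2 and 73.5 RPKM over the 4 samples, and *Vldlr* the lowest, between 7.54 and 9.20. Between them came *Lrp8* (31.5 to 33.7), *Dab1* (29.4 to 31.3), *Crk* (27.5 to 29.3), *Reln* (22.2 to 26.4) and *Crkl* (22.5 to 24.4). Only the ranges of the neighbours *Reln* and *Crkl* overlapped. The order depends on the exon length in the files, which for *Reln* was 19288 nt although its longest annotated transcript, Reln-207, has 11699 nt.

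**Figure D1:**
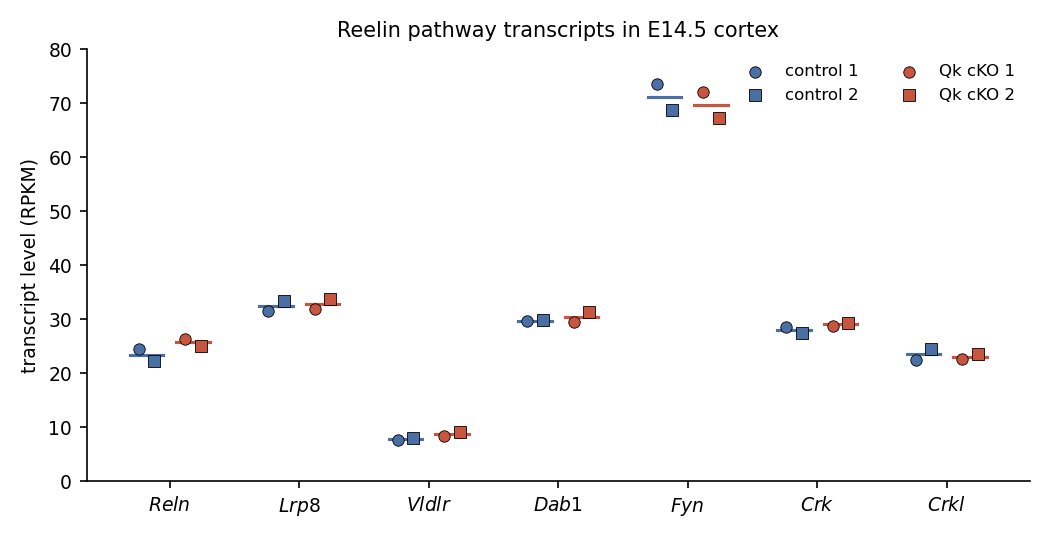
Transcript level in RPKM (vertical axis, linear from 0) of the 7 genes in each of the 4 samples. Circles are replicate 1 and squares replicate 2, blue is control and red *Qk* cKO, and the short lines are group means. *Fyn* lies between 67.2 and 73.5 RPKM and *Vldlr* between 7.54 and 9.20, and the colours lie close together for every gene.

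*Reln*, the ligand, lies on the minus strand of chromosome 5 (chr5:21884454-22344702, mm10). Its level was 24.6 and 22.2 RPKM in control replicates 1 and 2 and 26.4 and 25.1 RPKM in *Qk* cKO replicates 1 and 2. Both *Qk* cKO samples lay above both controls. The log2 fold change was 0.15 (standard error 0.079, 95% interval -0.012 to 0.32, FDR 0.622 by edgeR's quasi-likelihood test) and was not called. It was 0.23 without control replicate 1, 0.08 without control replicate 2 and 0.10 without *Qk* cKO replicate 1, and not called in any of these. *Reln* is made by Cajal-Retzius cells and, at this age, by few other cells of the cortex, and in bulk tissue fewer cells of a type cannot be told apart from less RNA per cell. Of the 8 Cajal-Retzius markers measured, 1 was called lower in *Qk* cKO, beside 0.377% of all tested genes. *Lhx1*, a transcription factor of these cells that is also expressed outside the cortex, had a log2 fold change of -0.94 and fell in *Qk* cKO (FDR 0.0437 by edgeR). The authors had already listed *Lhx1* as changed in the same samples, so the count of called markers is no independent test. *Trp73*, the defining transcription factor p73, had a log2 fold change of 0.03. Summed over the 8 markers, the level was 74.2 and 73.4 RPKM in control and 72.6 and 61.1 RPKM in *Qk* cKO, and 6 of 8 had a log2 fold change below 0, whereas that of *Reln* was above 0. The part of cell number in these levels was not tested.

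The receptors come next. *Lrp8* (chr4:107802261-107876840, plus strand) had 31.5 and 33.3 RPKM in control and 31.9 and 33.7 RPKM in *Qk* cKO. The groups overlapped, and the log2 fold change was 0.03 (95% interval -0.12 to 0.18, FDR 0.940 by edgeR). *Vldlr* (chr19:27216484-27254231, plus strand) had 7.54 and 7.95 RPKM in control and 8.37 and 9.20 RPKM in *Qk* cKO. Both *Qk* cKO samples lay above both controls. Its log2 fold change of 0.19 (standard error 0.075, 95% interval 0.037 to 0.35) was the largest of the 7 genes and had the smallest p, 0.0178, with FDR 0.407 by edgeR. The difference was therefore not called. The genes whose profile over the 4 samples came closest to that of *Vldlr*, among 9062 genes with a mean RPKM of at least 5, were *Rlf*, *Zbed6* and *Ubn2*. Their root mean square distances on the centred log2 CPM scale were 0.0087, 0.0091 and 0.0093.

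*Dab1* (chr4:103619359-104744844, plus strand), the adaptor that carries the signal from the receptors, had 29.7 and 29.8 RPKM in control and 29.4 and 31.3 RPKM in *Qk* cKO. The groups overlapped, and the log2 fold change was 0.04 (95% interval -0.065 to 0.15, FDR 0.884 by edgeR). *Fyn* (chr10:39368855-39565381, plus strand), the kinase, had 73.5 and 68.7 RPKM in control and 72.1 and 67.2 RPKM in *Qk* cKO. In both groups replicate 1 was the higher sample, and the groups overlapped. Its log2 fold change was -0.02 (95% interval -0.15 to 0.12, FDR 0.964 by edgeR). *Crk* (chr11:75679259-75706908, plus strand) encodes the adaptor that binds phosphorylated Dab1. It had 28.5 and 27.5 RPKM in control and 28.8 and 29.3 RPKM in *Qk* cKO. The groups were apart by a small margin, and the log2 fold change was 0.07 (95% interval -0.051 to 0.19, FDR 0.824 by edgeR). *Crkl* (chr16:17451987-17487434, plus strand), its relative, had 22.5 and 24.4 RPKM in control and 22.6 and 23.5 RPKM in *Qk* cKO, with overlapping groups and a log2 fold change of -0.01 (95% interval -0.14 to 0.12). The signs of *Lrp8*, *Fyn* and *Crkl* changed when single samples were left out, and their fold changes then lay between -0.0058 and 0.066, between -0.082 and 0.043 and between -0.070 and 0.043. In all, the RPKM of the groups did not overlap in 3 of the 7 genes, *Reln*, *Vldlr* and *Crk*, and this was so for 40.9% of all tested genes with a mean RPKM of at least 1.

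The other genes of the pathway were taken from 5 lists of proteases and other ligands, receptor turnover and co-receptors, Src family kinases, Dab1 turnover and targets of Dab1 signalling. Of their 86 symbols 79 were found in the files and 78 were tested. None was called higher and 1 was called lower in *Qk* cKO, beside 0.207% and 0.377% of all tested genes. The median log2 fold change of the 78 genes was -0.0053 and that of all tested genes -0.0025, with 38 of the 78 above 0. The gene called was *Pvrl3*, which encodes the adhesion molecule Nectin-3, a protein by which migrating neurons hold on to Cajal-Retzius cells. Its level was 7.30 and 6.92 RPKM in control and 4.72 and 5.47 RPKM in *Qk* cKO, with both *Qk* cKO samples below both controls. The log2 fold change of *Pvrl3* was -0.47, with a standard error of 0.11 and an FDR of 0.0947 in edgeR's quasi-likelihood test, close to the threshold. Without control replicate 1, control replicate 2 or *Qk* cKO replicate 1 it was not called, with FDR 0.532, 0.920 and 0.187 by edgeR, and it was not called by edgeR's exact test (FDR 0.159).

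In the list of targets, the genes with the smallest p after *Pvrl3* were *Limk2*, a kinase that phosphorylates cofilin, with a log2 fold change of -0.13 (FDR 0.417), and *Rap1gap*, which switches off the GTPase Rap1, with -0.26 (FDR 0.432 by edgeR). Neither was called. *Pvrl1*, the partner of *Pvrl3* that encodes Nectin-1, had -0.21 (FDR 0.610), and N-cadherin (*Cdh2*), which also acts below Rap1, had 0.08. Among receptor turnover and co-receptors, the ephrins *Efnb3* and *Efnb2* came first, with -0.16 (FDR 0.461) and 0.11 (FDR 0.638). Among ligands and proteases, the clusterin gene *Clu* had -0.15 (FDR 0.767) and the protease gene *Pcsk6* 0.16 (FDR 0.791). For Dab1 turnover, *Cul5*, the ubiquitin ligase scaffold that removes phosphorylated Dab1, had 0.15 (FDR 0.656) and *Tceb2*, its partner elongin B, had -0.09 (FDR 0.718). Of the Src family, *Lck*, a T cell kinase with a level below 3 RPKM in every sample, had 0.22 (FDR 0.780), and *Src* itself, between 41.3 and 45.1 RPKM, had -0.06 (FDR 0.829). None of these differences was called.

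**Figure D2:**
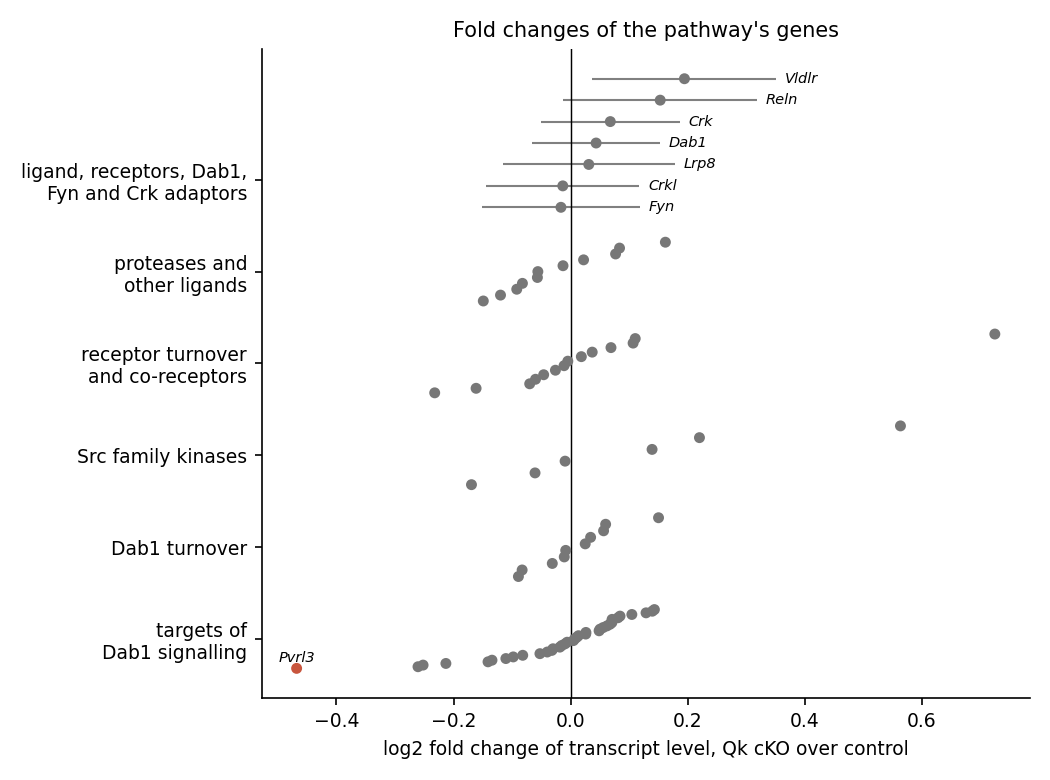
Log2 fold change of transcript level in *Qk* cKO over control (horizontal axis) for the tested genes of each list (rows). Each point is a gene, bars are 95% intervals for the 7 genes described here, and red marks the gene called by edgeR. Only *Pvrl3*, at -0.47, was called, and the 7 genes lie between -0.02 and 0.19.

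Splicing was examined next, since Qki5, the nuclear form of the protein, acts on exon choice. For each event, inclusion is the share of the first isoform in the junction tags, with tags divided by the number of junctions of each isoform, and Δ*I* is inclusion in control minus inclusion in *Qk* cKO. Of the 28 events of the 7 genes, 17 events in 6 genes had the coverage of at least 20 tags needed for the test. *Crkl* had no tested event. Called were 3 of the 17, at p below 0.01 and FDR below 0.1 within the event type (Fisher's exact test on summed tags), and all 3 had a Δ*I* of at least 0.1 in size. Of all 11500 tested events of the series 7.50% were called, and 3.30% with a Δ*I* of at least 0.1. Among cassette exons 9.28% were called, 4.11% with more inclusion in *Qk* cKO, and among retained introns 4.67%. The called events were 2 cassette exons of *Lrp8*, which shared a skipping junction and were thus not independent, and a retained intron of *Dab1*. The authors had listed *Lrp8* and *Dab1* among their splicing targets from the same samples. The 7 genes were chosen with earlier results of these data known, so their share of called events is no independent test. Fisher's exact test takes tags as independent and leaves out variation between embryos. In edgeR's interaction test, which includes that variation, none of the 17 was called, beside 0.557% of all events, and 5 of the 17 had an unadjusted p below 0.05, beside 7.17% of all events. These were the 3 called events, the 3-nt splice site of *Reln* and the 70-nt exon of *Fyn*. Inclusion in the groups did not overlap in 10 of the 17 events, beside 37.9% of all tested events. Among the 10 were both called exons of *Lrp8* and the choice between them, which share junction tags and are not independent. The 95% Wilson intervals of inclusion in a single sample had half-widths from 0.014 to 0.222 and cover counting error only.

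**Figure D3:**
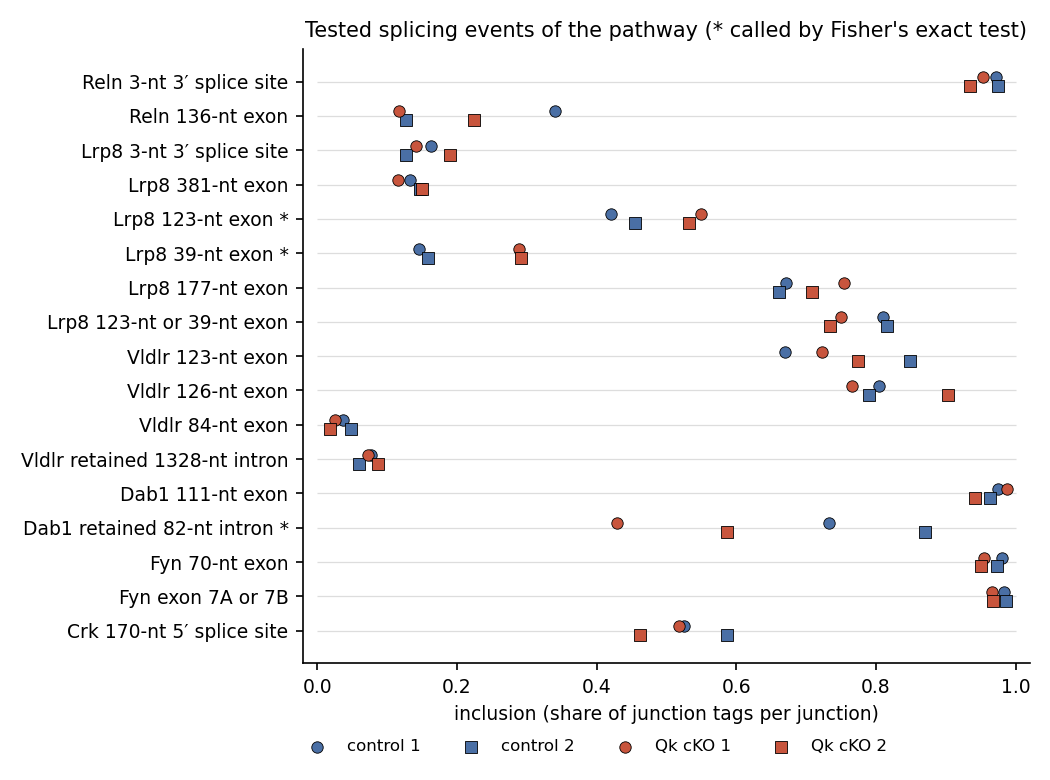
Inclusion (horizontal axis, 0 to 1) of the 17 tested events in each sample. Circles are replicate 1 and squares replicate 2, blue is control and red *Qk* cKO, and an asterisk marks the events called by Fisher's exact test. The colours are separate in the 39-nt exon of *Lrp8* (0.145 and 0.158 against 0.290 and 0.292) and in the retained intron of *Dab1* (0.733 and 0.870 against 0.429 and 0.586), whereas they overlap in the 381-nt exon of *Lrp8*.

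*Lrp8* had most of the tested events, 6 of the 17. Its receptor part is built from ligand-binding repeats that can be added or left out by exon choice. The 123-nt exon adds such a repeat. A 39-nt exon follows it in the gene, and by its length and place it is the exon known in the mouse to carry a site for the protease furin, which can release the ligand-binding part. A 177-nt exon adds a proline-rich insert to the cytoplasmic tail, to which JIP scaffold proteins bind. All 3 lengths are multiples of a codon. The 123-nt exon (exon 6 of Lrp8-203) lies at chr4:107848281-107848403 and is coding. The 39-nt exon lies at chr4:107850104-107850142, and of it only the end is annotated, as the first 15 bases of Lrp8-207. The 177-nt exon (exon 18 of Lrp8-201) lies at chr4:107870012-107870188 and is coding. Their sequences on the plus strand, 5′ to 3′, are given because they are the pieces that *Lrp8* transcripts gain or lose.
Lrp8 123-nt exon: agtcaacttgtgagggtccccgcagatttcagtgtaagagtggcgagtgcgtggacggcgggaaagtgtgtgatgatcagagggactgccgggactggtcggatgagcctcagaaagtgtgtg
Lrp8 39-nt exon, annotated end: ggaggcatcccaggg
Lrp8 177-nt exon: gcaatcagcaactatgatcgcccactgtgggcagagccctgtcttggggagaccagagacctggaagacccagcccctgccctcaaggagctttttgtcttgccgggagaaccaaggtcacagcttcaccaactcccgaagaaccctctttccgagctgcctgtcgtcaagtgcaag

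The 39-nt exon of *Lrp8* was included more in *Qk* cKO. The inclusion values were 0.145 and 0.158 for control and 0.290 and 0.292 for *Qk* cKO, and the replicates of a group lay far closer to each other than to the other group. On its upstream junction the controls had 15 and 14.4 tags and the *Qk* cKO samples 28.5 and 29.8. On its downstream junction the controls had 18 and 21.4 tags and the *Qk* cKO samples 42.5 and 33.8. Both junctions thus gained tags in both *Qk* cKO samples. Δ*I* was -0.139 (95% interval -0.212 to -0.063, counting error only; FDR 6.1e-04 by Fisher's exact test within cassette exons). It was called with each sample left out in turn, with Δ*I* between -0.145 and -0.132. In the edgeR interaction test its p was 0.0049 and its FDR 0.261.

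The 123-nt exon of *Lrp8* was also included more in *Qk* cKO. Inclusion was 0.421 and 0.454 in control and 0.549 and 0.533 in *Qk* cKO, without overlap. Δ*I* was -0.104 (95% interval -0.176 to -0.029; FDR 0.0399 by Fisher's exact test, coverage 356 tags). In the edgeR interaction test its p was 0.0330 and its FDR 0.512. Fisher's exact test did not call it without control replicate 1, without *Qk* cKO replicate 1 or without *Qk* cKO replicate 2, with FDR 0.238, 0.168 and 0.109.

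Since the exons share the junction that leaves out both, the tags were also read as a choice between 3 routes. The junction from the 123-nt to the 39-nt exon was not counted, so transcripts with both exons have no share of their own. Tags of such transcripts would fall to both exon routes. Neither exon was used by 52.7% and 49.5% of tags in control and by 38.1% and 39.2% in *Qk* cKO. The 123-nt exon was used by 38.3% and 41.2% in control and by 46.4% and 44.7% in *Qk* cKO. The 39-nt exon was used by 8.97% and 9.31% in control and by 15.5% and 16.1% in *Qk* cKO. Both exons took a larger part in *Qk* cKO at the cost of the route that leaves them out, and the ratio of the longer to the shorter exon was 4.27 and 4.43 in control and 2.99 and 2.77 in *Qk* cKO. As an event of its own, the choice between them had an inclusion of the 123-nt exon of 0.810 and 0.816 in control and 0.749 and 0.734 in *Qk* cKO. It was not called (Δ*I* 0.071, 95% interval -0.0075 to 0.147; FDR 0.318 by Fisher's exact test within mutually exclusive exons).

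**Figure D4:**
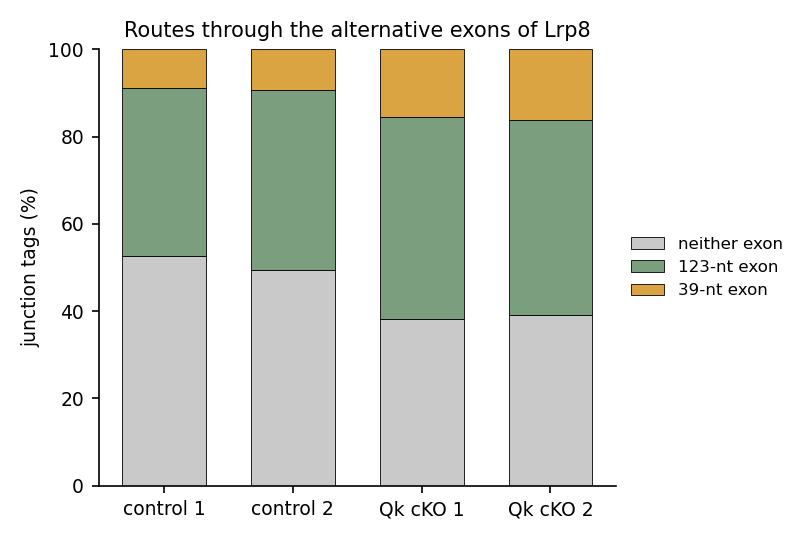
Share of junction tags in percent (vertical axis, from 0) that used neither exon (grey), the 123-nt exon (green) or the 39-nt exon (yellow) of *Lrp8* in each sample, with tags of an exon averaged over its junctions. The grey part is 52.7% and 49.5% in control and 38.1% and 39.2% in *Qk* cKO. Transcripts with both exons have no part of their own.

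The 177-nt exon of the *Lrp8* tail had an inclusion of 0.671 and 0.660 in control and 0.754 and 0.708 in *Qk* cKO. Both *Qk* cKO samples lay above both controls, as for the 123-nt and 39-nt exons. Δ*I* was -0.065 (95% interval -0.119 to -0.013; FDR 0.126 by Fisher's exact test) and was not called, while without *Qk* cKO replicate 2 it was called with Δ*I* -0.088 (FDR 0.0719). Without *Qk* cKO replicate 1 it was -0.043 (FDR 0.587), and without control replicate 1 or 2 it was -0.070 and -0.059 (FDR 0.237 and 0.308 by Fisher's exact test). The 381-nt exon at chr4:107846239-107846619, which adds several ligand-binding repeats at once, had an inclusion of 0.133 and 0.147 in control and 0.115 and 0.150 in *Qk* cKO. Its groups overlapped, and Δ*I* was 0.0074 (95% interval -0.045 to 0.063; FDR 0.996 by Fisher's exact test). The last tested event, a 3-nt shift of a 3′ splice site, had a Δ*I* of -0.018 (FDR 0.990 by Fisher's exact test).

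In *Vldlr*, none of the 4 tested events was called, and their Δ*I* values were at most 0.034 in size. The 84-nt exon (exon 16 of Vldlr-207, chr19:27246593-27246676) encodes the O-linked sugar domain close to the membrane, whose presence is known to affect shedding of the receptor. It is shown because it divides the known forms of the receptor.
Vldlr 84-nt exon: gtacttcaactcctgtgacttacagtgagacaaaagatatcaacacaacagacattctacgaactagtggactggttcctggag
This exon was mostly left out, with an inclusion of 0.037 and 0.049 in control and 0.026 and 0.018 in *Qk* cKO (Δ*I* 0.021, 95% interval -0.016 to 0.065; FDR 0.728 by Fisher's exact test). The retained intron across the same place, of 1328 nt, had the highest coverage of the gene and an inclusion of 0.077 and 0.060 in control and 0.073 and 0.087 in *Qk* cKO. A 123-nt exon of the ligand-binding part (chr19:27236240-27236362) had 0.670 and 0.848 in control and 0.723 and 0.774 in *Qk* cKO, so that both *Qk* cKO samples lay between the controls. A 126-nt coding exon (chr19:27239845-27239970) had 0.805 and 0.789 in control and 0.766 and 0.902 in *Qk* cKO. *Vldlr* was the gene of the 7 with the lowest level, and the coverage of these events was between 24.1 and 60.9 tags.

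The called event of *Dab1* was a retained intron of 82 nt (chr4:104680109-104680190) behind a 39-nt exon (chr4:104680070-104680108). By annotation it belongs to short forms of the transcript. Dab1-201 reads from the 39-nt exon on into the intron and soon comes to the end of its reading frame, Dab1-202 splices the intron out to another last exon, and the full-length form Dab1-203 joins the 39-nt exon to a 66-nt exon further downstream (chr4:104681598-104681663). The exon is shown in lower case and the coding part of the retained intron in Dab1-201 in capitals.
Dab1-201 end of reading frame: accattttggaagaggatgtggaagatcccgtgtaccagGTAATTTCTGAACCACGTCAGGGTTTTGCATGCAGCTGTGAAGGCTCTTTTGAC

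The intron of *Dab1* was retained less in *Qk* cKO. Inclusion of the intron was 0.733 and 0.870 in control and 0.429 and 0.586 in *Qk* cKO. The groups did not overlap. Δ*I* was 0.295 (95% interval 0.076 to 0.454; FDR 0.0749 by Fisher's exact test within retained introns, of which 0.571% were called in this direction). The event rested on few tags, with a coverage of 28.3. Fisher's exact test was given the added tags of both intron boundaries. A read of 150 nt can cross both boundaries of an 82-nt intron, so the same read may have been counted at each. The 82-nt intron lies within the longer intron between the 39-nt and the 66-nt exon. Boundary tags may therefore also come from full-length transcripts not yet spliced, which was not tested. On the spliced junction the controls had 3.34 and 3 tags and the *Qk* cKO samples 10 and 12. The mean over the boundaries of the intron was 9.16 and 20 tags for the controls and 7.5 and 17 for the *Qk* cKO samples. It was thus the spliced junction that separated the groups, while the retained tags overlapped. With samples left out in turn it was called only without control replicate 1 (Δ*I* 0.343, FDR 0.0758). Without control replicate 2 it was not called (Δ*I* 0.206, FDR 0.487 by Fisher's exact test), and without *Qk* cKO replicate 1 or 2 its coverage of 18.3 and 16.3 tags was too low for the test. In the edgeR interaction test its p was 0.0237 and its FDR 0.683.

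The tags read as short ends were few beside those of the full-length form. Between the 39-nt and the 66-nt exon the controls had 208 and 184 tags and the *Qk* cKO samples 216 and 231. Of the tags leaving the 39-nt exon by these 3 ways, 94.3% and 88.9% in control and 92.5% and 88.8% in *Qk* cKO went to the 66-nt exon. The spliced short end took 1.51% and 1.45% in control and 4.28% and 4.62% in *Qk* cKO, and the retained intron 4.16% and 9.66% in control and 3.21% and 6.54% in *Qk* cKO. The call thus concerned the tags read as short ends, and the share that went to the 66-nt exon overlapped between the groups.

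**Figure D5:**
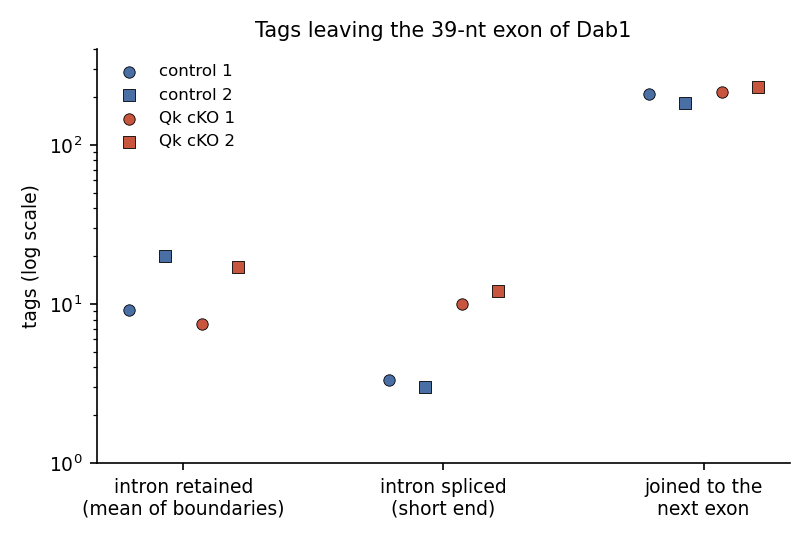
Tags (vertical axis, logarithmic) on the 3 ways by which *Dab1* transcripts leave the 39-nt exon, in each sample. Circles are replicate 1 and squares replicate 2, blue is control and red *Qk* cKO. The spliced short end has 3.34 and 3 tags in the controls against 10 and 12, and the junction to the next exon 184 to 231 tags.

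The other tested event of *Dab1* was a 111-nt exon near the end of the gene (chr4:104732070-104732180). Its inclusion was 0.974 and 0.964 in control and 0.987 and 0.941 in *Qk* cKO, with overlapping groups (Δ*I* 0.0056, 95% interval -0.020 to 0.030; FDR 0.946 by Fisher's exact test). The 39-nt and 66-nt exons were left out together by 0 and 2 tags in the controls against 7 and 1, too few for the test. A 270-nt exon (chr4:104704204-104704473) was practically unused, with 128, 118, 129 and 115 tags skipping it in the 4 samples.

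*Fyn* has exons 7A and 7B, of which a transcript takes one. The form with exon 7A, FynB, is the main form in brain, and the form with exon 7B, FynT, in T cells. The exons encode the linker in front of the kinase domain and the start of that domain. Exon 7A has 165 nt (chr10:39529437-39529601, exon 9 of Fyn-202) and exon 7B has 156 nt (chr10:39529919-39530074, exon 9 of Fyn-201), and both are shown so that the exchanged pieces can be compared.
Fyn exon 7A: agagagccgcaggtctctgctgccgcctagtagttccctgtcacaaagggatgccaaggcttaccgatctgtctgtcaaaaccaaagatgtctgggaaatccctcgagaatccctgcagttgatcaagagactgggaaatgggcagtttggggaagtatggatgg
Fyn exon 7B: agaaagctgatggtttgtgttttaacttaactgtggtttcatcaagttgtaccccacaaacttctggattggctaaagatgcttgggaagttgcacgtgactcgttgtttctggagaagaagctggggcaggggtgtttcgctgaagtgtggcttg
Exon 7A carried nearly all tags in every sample, with an inclusion of 0.983 and 0.985 in control and 0.966 and 0.967 in *Qk* cKO. Both *Qk* cKO samples lay below both controls, by a small amount. The difference was not called (Δ*I* 0.018, 95% interval 0.0025 to 0.035; FDR 0.379 by Fisher's exact test within mutually exclusive exons). With the test on junction tags only, in place of junction and exon tags, it was called (FDR 0.0272). The upstream and downstream junctions of exon 7B had 7 and 7 tags in control replicate 1, 5 and 5 in control replicate 2, 20 and 11 in *Qk* cKO replicate 1 and 7 and 17 in *Qk* cKO replicate 2. A 70-nt exon in the 5′ untranslated part of *Fyn* (chr10:39455066-39455135) had an inclusion of 0.980 and 0.974 in control and 0.955 and 0.950 in *Qk* cKO, and was not called (Δ*I* 0.024, FDR 0.186 by Fisher's exact test).

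In *Crk*, an inner 5′ splice site of exon 2 separates the forms of the adaptor. The long exon gives Crk-II, with its second SH3 domain and the regulatory tyrosine, and the inner site, 170 nt upstream, gives Crk-I without them. The 170 nt (chr11:75692563-75692732) that only Crk-II carries are shown.
Crk stretch of exon 2: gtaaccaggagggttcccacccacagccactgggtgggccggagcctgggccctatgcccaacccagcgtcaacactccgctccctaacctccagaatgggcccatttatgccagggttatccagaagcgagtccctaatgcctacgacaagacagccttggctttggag
This event had the highest coverage of all 17, with 723 tags. The share of the long exon was 0.525 and 0.586 in control and 0.517 and 0.462 in *Qk* cKO. The groups did not overlap, but control replicate 1 and *Qk* cKO replicate 1 differed by less than the replicates of either group. Δ*I* was 0.063 (95% interval 0.014 to 0.113; FDR 0.198 by Fisher's exact test within 5′ splice sites) and was not called, with p = 0.109 in the edgeR interaction test. Single samples moved the value, which was 0.095 without control replicate 1, 0.034 without control replicate 2, 0.092 without *Qk* cKO replicate 1 and 0.037 without *Qk* cKO replicate 2, and none of these was called.

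*Reln* has a microexon of 6 nt close to its end (exon 64 of Reln-207, chr5:21891562-21891567), which is known to be used in neurons. It lies at the end of a longer 136-nt exon (chr5:21891562-21891697) that starts further upstream and belongs to Reln-205, and both share a 5′ splice site. The sequence below gives the microexon in capitals between 15 bases of each neighbouring exon, on the minus strand.
Reln microexon with neighbours: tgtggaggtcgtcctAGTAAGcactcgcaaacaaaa
The event in the files is that of the 136-nt exon. On its upstream junction the controls had 3.61 and 0.288 tags and the *Qk* cKO samples 2.28 and 4.76. On its downstream junction the controls had 22.6 and 9.29 tags and the *Qk* cKO samples 9.28 and 16.8. The downstream junction, which the microexon can use as well, thus carried more tags than the upstream junction in every sample. Skipping tags were 25.4 and 32.7 in control and 43.7 and 37.2 in *Qk* cKO. Inclusion by the files' junctions was 0.340 and 0.128 in control and 0.117 and 0.224 in *Qk* cKO, and the replicates of a group differed by more than the groups (Δ*I* 0.066, 95% interval -0.056 to 0.187; FDR 0.497 by Fisher's exact test). A 3-nt shift of a 3′ splice site in *Reln* had 0.971 and 0.974 in control and 0.953 and 0.935 in *Qk* cKO and was not called (Δ*I* 0.029, 95% interval 0.0053 to 0.051; FDR 0.157 by Fisher's exact test).

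Qki is known to bind the RNA motif ACUAAC, which reads ACTAAC in DNA letters. On the transcribed strand, none of the 9 sequences above holds it, and 1.42% of the 3528 distinct annotated exons among the tested cassette events do. Only the last 15 bases of the *Lrp8* 39-nt exon were searched, and the *Dab1*, *Crk* and *Reln* sequences are not single whole exons. The count is therefore not like the share of whole exons. The introns beside these exons were not searched, apart from the piece of *Dab1* intron shown. The absence of these letters from the sequences says nothing of the binding of Qki to the transcript.

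Markers of other cells were read beside these results. Of all tested genes 0.377% were called lower in *Qk* cKO and 0.207% higher. The lists were chosen with earlier results of these data known, so their counts are no independent test beside these shares. The authors had already listed *Fabp7*, *Ctss*, *Pomc*, *Nkx2-2*, *Irx3* and *Wnt9b* of these lists as changed in the same samples. Of 9 radial glia markers 2 were called lower, *Fabp7* and *Slc1a3*, and the summed level was 1516 to 1637 RPKM in control and 1270 to 1333 RPKM in *Qk* cKO. *Fabp7* alone had 989 and 901 RPKM in control and 703 and 667 RPKM in *Qk* cKO. Without it the sums were 615 to 648 and 603 to 630.5 RPKM and overlapped. Most of that remaining sum was *Vim*, at 444 to 481 RPKM. Of the other radial glia markers *Pax6*, *Hes1* and *Nes* had log2 fold changes of 0.08, 0.08 and 0.04, and *Vim* of -0.01. *Sox2*, *Hes5* and *Hopx* had -0.29, -0.19 and -0.11, and the groups did not overlap for *Sox2* and *Hes5*. None of these was called, and 6 of all 9 markers had a log2 fold change below 0. Of 8 markers of hypothalamus and diencephalon 3 were called lower, with sums of 4.66 to 9.79 RPKM in control and 1.69 to 2.79 RPKM in *Qk* cKO. Of 6 microglia markers 1, *Ctss*, was called lower. None was called among projection neurons, intermediate progenitors, interneurons, vessels, meninges and erythroid cells. The part of tissue composition in the levels and in the inclusion of the *Lrp8* and *Dab1* events was not tested.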

How the data were processed

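Per the labels and the methods, the authors used OLego for alignment to mm10 and Quantas for quantification. The values the authors deposited are estimated counts of tags, often not whole, per gene and splicing event, and RPKM per gene. The methods name 3 replicates, whereas the labels give the 2 of each group used here.

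Gene tags were rounded and compared with edgeR's quasi-likelihood test (edgeR 4.0.16) with TMM scaling. Genes without any tag were left out. Standard errors were calculated from the F statistic. For splicing, Fisher's exact test was run on isoform tags summed over replicates, at a coverage (the smallest row or column sum of junction tags by group) of at least 20. P-values were adjusted over all genes, or over all events of a type. Alternatives were other tests, scalings, filters and coverages, a replicate block, and each sample left out. Scripts were tested on simulated data.

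Positions and exon sequences come from GENCODE M21 on GRCm38, the build of mm10. Named were the 7 genes, list genes called or with the smallest p, and events that were called, best covered or well known. Further events, *Pvrl1*, *Cdh2*, *Src* and several markers were named after their values were seen. A gene that the rule names is not reported here. The 7 genes and all lists were chosen with earlier results of these data known. Intervals of gene fold changes include the spread between samples, and those of inclusion and Δ*I* cover counting error only.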

Additional observations from a re-analysis of the deposited data

How the results depend on the processing

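None of the 7 genes was called under any of the 10 alternatives for gene levels. Of the pathway list genes, *Pvrl3* was the 1 called, and 0 were called by edgeR's exact test, after edgeR's filterByExpr (FDR 0.314) or with a mean RPKM of at least 1 in both groups (FDR 0.299). With each sample left out in turn there were 0 to 1, which was *Pvrl3* without *Qk* cKO replicate 2 (FDR 0.0845) and another gene, *Pafah1b3*, without *Qk* cKO replicate 1 (log2 fold change -0.31, FDR 0.0267, against -0.14 and FDR 0.610 with all samples). Leaving out a sample leaves a group with 1 sample that is assumed to vary like the others. Without control replicate 2, 0 genes were called in all and without *Qk* cKO replicate 1 there were 428, so these refits differ in what they can call. Signs reversed only in uncalled values when single samples were left out. The log2 fold changes then ranged from -0.0058 to 0.066 for *Lrp8*, from -0.082 to 0.043 for *Fyn* and from -0.070 to 0.043 for *Crkl*. Without a change of sign, they ranged from 0.08 to 0.23 for *Reln*, from 0.0082 to 0.074 for *Dab1* and from 0.037 to 0.096 for *Crk*. Δ*I* ranged from -0.042 to 0.171 for the *Reln* 136-nt exon, from -0.079 to 0.099 for the *Vldlr* 123-nt exon, from -0.104 to 0.033 for the *Vldlr* 126-nt exon, from -0.011 to 0.024 for the *Lrp8* 381-nt exon and from -0.043 to 0.0050 for the *Lrp8* 3-nt splice site.

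Of the events of the 7 genes, 3 were called in the main test, 4 with junction tags only, 2 at a coverage of 50 and 0 by the edgeR interaction test. With Δ*I* of at least 0.2 there was 1, the *Dab1* intron. With each sample left out there were 1 to 2, both in all and with Δ*I* of at least 0.1. The cause of these differences was not tested, apart from the depth of the *Dab1* intron (28.3 tags), which is below the coverage of 50. Tags on the junction of *Qk* exons 2 and 3, divided by those on the junction of exons 3 and 4, were 6.40% of control. The junction of exons 3 and 4 itself had 574 and 439 tags in control and 898 and 830 in *Qk* cKO. The value of 6.40% lay between 5.90% and 6.92% with each sample left out, an alternative added after the data were seen.

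The labels give both groups the replicate numbers 1 and 2. With the number as a block, 0 of the 7 genes, 1 pathway list gene and 3 events of the 7 genes were called. Over all genes the block moved the number called from 110 to 192. Deviations of same-numbered samples from their group means correlated at -0.051 over 12644 genes and at 0.011 over 6965 events. The samples were therefore not treated as pairs.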
